A study of Saccharomyces cerevisiae with 24 samples.

Results

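Genes for membrane and secreted proteins were low in a group of aneuploid budding yeast strains, and the other genes of those strains were set beside them. The group was chosen from the data: in sequencing run 2, the libraries of D1/2/8, D1/2/8/11, D13 and D13 (KLY195) had been seen to share a fall of secretory and membrane genes, and those of D1/8 and the euploid strain (WT) had not. Of the 24 libraries of the series, 18 entered the comparison, 12 from the 4 low strains (6 cultures, each with 1 ribosome footprint library and 1 total mRNA library) and 6 from D1/8 (2 cultures) and WT (1 culture). All strains were haploid Saccharomyces cerevisiae of the S288C background with ura3 and his3 auxotrophies (and leu2, trp1 or both in all but KLY195), grown in YPD with no treatment before the cycloheximide added at harvest. D1/2/8 (NVY3) carried an extra copy of chromosomes I, II and VIII, and D1/2/8/11 (KLY193) carried XI as well. D13 (KLY196) and D13 (KLY195) carried an extra chromosome XIII and were MATα, and all the other strains were MATa. NVY3 and KLY196 had an inherited missense change in CAK1, the kinase that activates Cdc28, and KLY196 another in SEC24, a COPII coat gene. The strain list gives KLY193, KLY194 and KLY195 marker cassettes that restore these genes. Each strain was 1 isolate, and D1/8 (KLY194) was derived from NVY3, so strains of both groups share a lineage.

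Ribosome profiling sequences the stretches of mRNA that ribosomes protect from nuclease, and footprints (FP) per gene follow how much of a protein is being made. In yeast, most proteins destined for the cell surface, the vacuole or the outside enter the endoplasmic reticulum (ER) while or soon after they are translated. A hydrophobic signal sequence or first transmembrane segment is recognised by the signal recognition particle or by posttranslational factors and passed to the Sec61 channel. In the ER, chaperones fold the new proteins and enzymes add sugars and lipid anchors, and coated vesicles carry them onward. Tail-anchored proteins, whose only transmembrane segment lies at the carboxyl end, are inserted after translation by another route.

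Values were the deposited RPKM (reads scaled to the length of the coding sequence and the mapped reads of the library), taken as log2(RPKM + 0.5) with each library centred on its median. Genes on chromosomes I, II, VIII, XI and XIII were left out, since a strain of the comparison carried them in duplicate, as were genes with a mean under 1 RPKM. A gene was counted as lower or higher when the 6 values of the low strains did not overlap the 3 of D1/8 and WT and the group means differed by at least 1.5-fold. Since the grouping itself came from this contrast, no value of it was tested, and all counts and differences (low strains minus D1/8 and WT, log2) are descriptions. As each library was made from the lysate of a whole culture, fewer cells expressing a gene and less RNA per cell cannot be told apart. Both fractions came from the cleared supernatant of detergent lysates. Less of a membrane-bound mRNA in the cell and less of it recovered in that supernatant cannot be told apart either. Recovery was not tested.

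The run 2 libraries held 8480482 to 24935971 recovered reads in FP and 22385001 to 39633476 in mRNA. The chromosome medians followed the labelled karyotypes in all of them, except that chromosome XI of D1/2/8, not listed as duplicated, stood at 0.24 in FP and 0.26 in mRNA relative to WT. Mating type followed the strain list: the summed FP level of the 7 MATa genes was 351 to 618 RPKM in the MATa low libraries and 8.53 to 21.2 RPKM in the MATα ones, against 628 to 633 RPKM in D1/8 and 1868 RPKM in WT. The FP library labelled D13 (KLY195) replicate 1 went against its label. It held TRP1, the gene of the repair cassette, at 0.759 RPKM, close to D13 (2.95 RPKM) and unlike replicate 2 (105 RPKM), and the SD of its log2 ratio to D13 was 0.26 but 0.43 to replicate 2. Its mRNA partner held TRP1 at 303 RPKM. FMP16 differed in the same way between these libraries. In FP, D13 and the library in question had 123 and 160 RPKM and replicate 2 had 30 RPKM, while in mRNA D13 had 71.1 RPKM and the replicates of D13 (KLY195) had 23.3 and 20.2 RPKM. Both possible strains belong to the low group, and without that library 603 genes were lower and 506 higher in FP, against 600 and 467 with it. The libraries labelled D1/8 also lacked the cassette that the strain list gives them, with TRP1 at 0 and 0.259 RPKM in FP and at 0 in both mRNA libraries.

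In FP, 600 of 3711 genes (16.2%) were lower in the low strains and 467 (12.6%) were higher. In mRNA, 613 of 4038 genes (15.2%) were lower and 277 (6.86%) were higher. Of the 3710 genes measured in both fractions, 313 (8.44%) were lower in both, which is 52.2% of the genes lower in FP and 53.1% of those lower in mRNA. Only 60 (1.62%) were higher in both, or 12.8% of the genes higher in FP and 24.3% of those higher in mRNA. No gene was lower in FP and higher in mRNA, and 12 were higher in FP and lower in mRNA. Across the 3710 genes the FP and mRNA differences had a Spearman correlation of 0.50, a description over genes whose 2 values come from the same cultures. The genes counted as higher depend on the scale: the median of all genes stood at 0.27 in FP, and with libraries centred on the genes without a hydrophobic segment instead, a choice made after seeing the data, all FP differences moved by -0.29 and all mRNA differences by -0.11. On that scale 730 genes were lower and 47 higher in FP, so that 6.0% of the counted genes were higher in place of 43.8%. In mRNA 743 were lower and 168 higher, 18.4% in place of 31.1%.

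**Figure D1:**
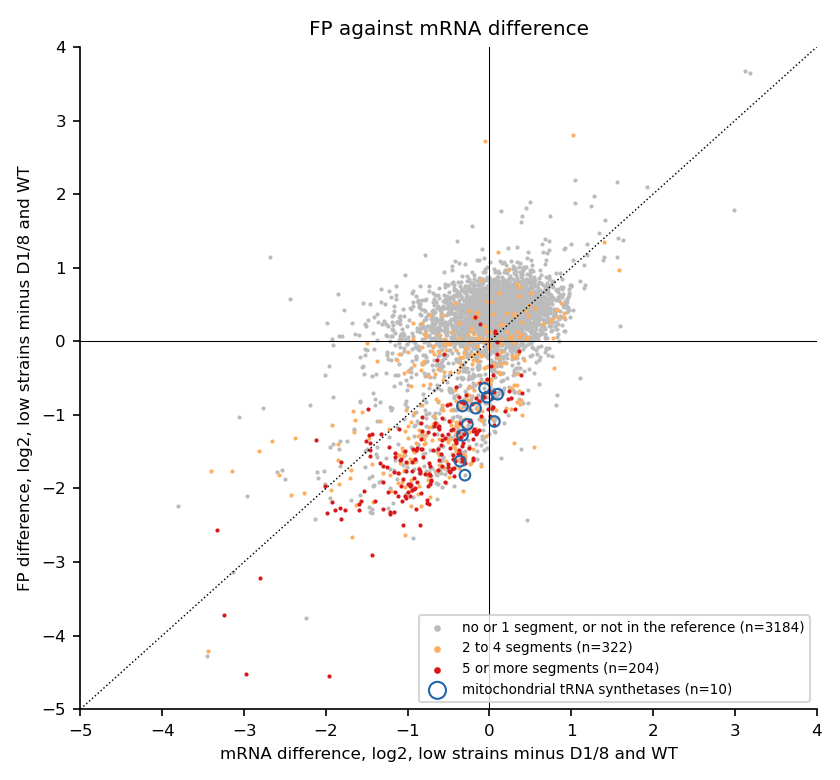
Difference between the low strains and D1/8 with WT in log2(RPKM + 0.5) in FP (vertical axis) and mRNA (horizontal axis), 1 point per gene for 3710 genes, 3 of which lie outside the axes. Genes with hydrophobic segments extend to the lower left, and the 313 genes lower in both fractions lie there.

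Of the 600 genes lower in FP, 483 (80.5%) encode a protein with a predicted hydrophobic segment, which 31.3% of the genes used in FP have. In mRNA, 358 of the 613 lower genes (58.4%) have one, against 31.5% of the genes used. Segments were called where 19 consecutive residues averaged 1.6 or more on the Kyte-Doolittle scale, or where 11 residues beginning no later than residue 25 averaged 2 or more. The median FP difference of genes with a segment was -0.35. By library it lay between -0.39 and -0.32 in the 6 low libraries, against -0.01 to 0.01 in D1/8 and WT. All such library values are set against the mean of D1/8 and WT for each gene, so D1/8 and WT lie near 0 by construction. The low libraries lay close together, but they had been grouped by a fall of such genes.

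The number of segments went with the size of the FP difference. Genes without a segment had a median of 0.37 (2499 genes, 114 lower). The median was -0.72 with 2 to 4 segments (322 genes, 50.9% lower), -1.47 with 5 to 9 (164 genes, 81.7% lower) and -1.63 with 10 or more (40 genes, 92.5% lower). In the last class the 6 low libraries ranged from -1.88 to -1.49, while D1/8 and WT lay at 0.00 and -0.01. In mRNA the same 4 classes stood at 0.10, -0.37, -0.52 and -0.91, smaller than in FP in each class with a segment. The difference in FP minus that in mRNA, the ribosome density, had medians of 0.25 without a segment, -0.37 with 2 to 4, -0.84 with 5 to 9 and -0.75 with 10 or more.

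**Figure D2:**
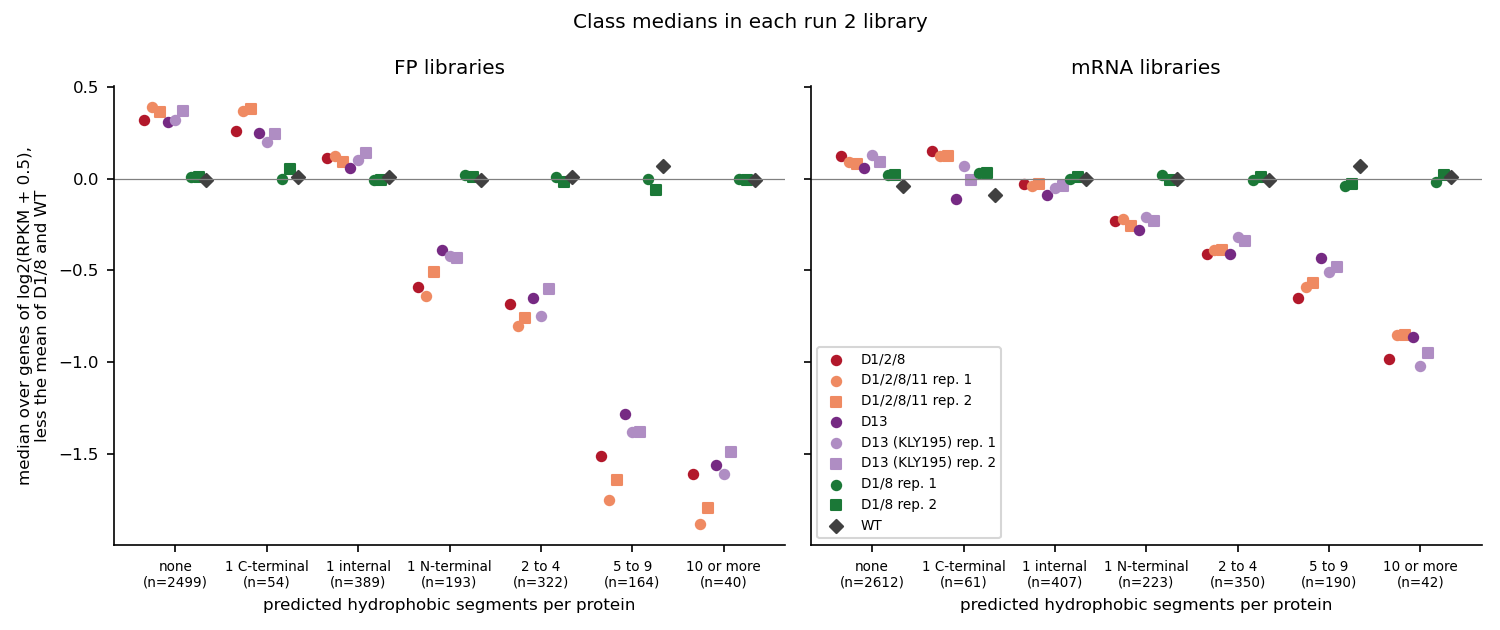
Median of log2(RPKM + 0.5) over the genes of each segment class, less the mean of D1/8 and WT (vertical axis), in each of the 9 run 2 FP libraries (left) and mRNA libraries (right), with the number of genes below each class. In the classes with 2 or more segments all 6 low libraries lie below D1/8 and WT in both panels, and in FP the class with 10 or more spans -1.88 to -1.49 in them.

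Among proteins with a single segment, the values differed with its place. Genes whose segment starts in the first 35 residues, as a signal sequence or an amino-terminal anchor does, had a median FP difference of -0.49 (193 genes, 42.5% lower), with -0.64 to -0.39 in the low libraries and -0.01 to 0.02 in D1/8 and WT. Those with an internal segment stood at 0.15 (389 genes, 59 lower and 28 higher), which the shift of -0.29 on the other scale takes below 0. The 54 genes whose segment starts in the last 50 residues stood at 0.32, with 7 lower and 8 higher, close to the genes without a segment. In mRNA these 3 classes stood at -0.24, -0.04 and -0.02, and the order of the first against the other 2 was the same.

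Coding sequences for segments of both kinds are given from the RefSeq R64 genome to show the position of the segment. Capitals mark the codons of the segment, each run starts at the start codon for the genes in the first set, and the strand read is the coding strand. EUG1 and KAR2 encode a disulfide isomerase and the Hsp70 chaperone of the ER lumen, CWH41 encodes the glucosidase that trims the first glucose of N-glycans, OST3 an oligosaccharyltransferase subunit and PMT1 an O-mannosyltransferase.
EUG1, chrIV:1478608-1478685, plus strand: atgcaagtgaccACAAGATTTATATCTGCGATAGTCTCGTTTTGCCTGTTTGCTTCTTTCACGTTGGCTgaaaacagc
KAR2, chrX:381327-381422, plus strand: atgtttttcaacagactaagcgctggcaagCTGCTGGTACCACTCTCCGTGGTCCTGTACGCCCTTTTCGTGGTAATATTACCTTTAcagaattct
CWH41, chrVII:446057-446143, minus strand: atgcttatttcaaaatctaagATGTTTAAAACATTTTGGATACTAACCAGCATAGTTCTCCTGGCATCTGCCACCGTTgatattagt
OST3, chrXV:482033-482107, plus strand: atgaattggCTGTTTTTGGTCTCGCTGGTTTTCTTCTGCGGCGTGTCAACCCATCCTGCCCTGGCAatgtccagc
PMT1, chrIV:287059-287274, plus strand: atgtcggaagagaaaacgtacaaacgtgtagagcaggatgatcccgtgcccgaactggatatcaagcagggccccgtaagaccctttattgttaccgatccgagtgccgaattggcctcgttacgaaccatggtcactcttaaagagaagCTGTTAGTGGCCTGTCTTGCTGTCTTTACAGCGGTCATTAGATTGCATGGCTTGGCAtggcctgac
The segment covers residues 5 to 23 of 517 in Eug1, 11 to 29 of 682 in Kar2, and 8 to 26 of 833 in Cwh41, each the only one predicted. In Ost3 it covers residues 4 to 22 of 350 and in Pmt1 51 to 69 of 817, each the first of several. All 5 genes were lower in both fractions, with FP differences of -2.33, -2.16, -2.28, -1.23 and -2.26 in that order. These examples do not stand for every gene with an early segment. Of the 193 genes whose single segment starts in the first 35 residues, 82 were lower in FP and 11 higher. OST4, at 0.81, and COX9, at 1.25, were among the higher ones. The second set holds SNAREs, the membrane fusion proteins that are anchored at their carboxyl end, and each run ends shortly after the segment.
SSO1, chrXVI:108070-108144, plus strand: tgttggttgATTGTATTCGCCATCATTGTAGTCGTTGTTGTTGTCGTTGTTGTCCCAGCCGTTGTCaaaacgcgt
SEC22, chrXII:680773-680844, plus strand: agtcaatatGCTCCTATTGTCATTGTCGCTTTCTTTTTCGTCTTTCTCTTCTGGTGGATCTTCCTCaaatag
SNC2, chrXV:930737-930811, minus strand: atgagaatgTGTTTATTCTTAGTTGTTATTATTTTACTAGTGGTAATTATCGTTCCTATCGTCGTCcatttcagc
Their segments end 3, 1 and 3 residues before the end of proteins of 290, 214 and 115 residues. The FP differences were 0.70 for SSO1, 0.53 for SEC22 and 0.30 for SNC2, and none of them was counted as lower. Of the 54 genes whose single segment starts in the last 50 residues, 7 were lower in FP and 8 higher. TSC13, at -1.16, was among the lower ones.

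Among genes with 2 or more segments, the FP values differed with the place of the first one. The FP median was -1.23 where the first segment starts within 35 residues (217 genes), -1.33 at 35 to 100, -0.92 at 100 to 200 (88 genes), -0.36 at 200 to 400 (55 genes) and -0.24 beyond 400 residues (38 genes). The mRNA medians of the same bins were -0.54, -0.48, -0.39, -0.45 and -0.46. The medians of each gene's density difference were -0.59, -0.69, -0.53, -0.11 and 0.13, against 0.25 for genes without a segment. The difference between FP and mRNA was thus smaller where the first segment comes late, and which of the 2 is lower there depends on the scale, since centring on genes without a segment moves FP by -0.29 and mRNA by -0.11. The genes of these bins differ in length and level as well, whose part was not tested.

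Base composition, length and level also went with the differences, among genes without a segment. In mRNA the median was 0.44 for coding sequences of up to 36% GC (191 genes) and -0.25 above 44% GC (331 genes), with a Spearman correlation of -0.46 across 2499 genes that share the same libraries. By library, the low strains stood at 0.25 to 0.36 for genes of up to 38% GC and at -0.40 to -0.18 above 44%, against -0.03 to 0.03 and -0.11 to 0.08 in D1/8 and WT. In FP the correlation with GC was 0.26, with coding length -0.47 and with the mean FP level 0.44. Genes of up to 600 bases had an FP median of 0.57 and those over 2400 bases 0.09. Genes above 200 RPKM had 0.59 and those up to 10 RPKM 0.11. With the GC trend removed in each library, an alternative added after seeing the data, 703 genes were lower and 53 higher in FP, 699 were lower and 114 higher in mRNA, and the medians of genes with a segment were -0.60 and -0.36. The part of composition, length and level in the gene lists was not tested.

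The translocation machinery of the ER was split. SEC61, which encodes the channel itself (YLR378C, chromosome XII), stood at 70.0, 98.2 and 118 RPKM (lowest, median, highest) in FP in the low strains, against 326 and 314 RPKM in D1/8 and 286 RPKM in WT. The groups lay further apart in mRNA, with 29.0, 41.5 and 46.6 RPKM in the low strains, against 283 and 332 RPKM in D1/8 and 230 RPKM in WT. The groups did not overlap in either fraction, and the differences were -1.49 in FP and -2.81 in mRNA. SEC63, the channel partner that recruits Kar2, stood at -2.24 in FP and -0.96 in mRNA. Of the 8 translocon genes measured, 4 were lower in FP (median -0.56), and SSS1, the small channel subunit with its segment at the carboxyl end, was not among them, with 0.56. None of the 4 soluble signal recognition particle genes was lower (median 0.36, or 0.07 when centred on genes without a segment).

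The folding enzymes of the ER lumen were low nearly throughout. Of 10 genes, 9 were lower in FP (median -1.69, against 0.27 over all genes) and 7 in mRNA (median -1.12). KAR2 (YJL034W, chromosome X) had 88.2, 144 and 195 FP RPKM in the low strains, against 788 and 753 RPKM in D1/8 and 588 RPKM in WT, a difference of -2.16. In mRNA it had 154, 194 and 236 RPKM, against 732 and 737 RPKM in D1/8 and 450 RPKM in WT. PDI1, the main protein disulfide isomerase (YCL043C, chromosome III), had 177, 245 and 283 FP RPKM, against 1020 and 1037 RPKM in D1/8 and 708 RPKM in WT. The prediction gave Pdi1 no segment although it is an ER protein, so the class without a segment holds some secretory genes. Only FPR2, an ER prolyl isomerase, was not lower (0.36 in FP). KAR2, PDI1, EUG1 and JEM1 are also known targets of the unfolded protein response, and JEM1 stood at -1.75 in FP.

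Many enzymes that add sugars and lipid anchors were low. All 6 O-mannosyltransferase genes measured were lower in both fractions, with medians of -2.25 in FP and -1.23 in mRNA. PMT1 (YDL095W, chromosome IV) had 33.5, 43.0 and 50.9 FP RPKM in the low strains, against 256 and 243 RPKM in D1/8 and 213 RPKM in WT. All 11 Golgi mannosyltransferase genes were lower in FP (median -1.85) and 7 in mRNA (median -0.72). Each of these 11 has only 1 or 2 predicted segments. KTR1 (YOR099W, chromosome XV) had 53.0, 64.2 and 73.0 FP RPKM, against 290 and 269 RPKM in D1/8 and 263 RPKM in WT. Of 15 genes of glycosylphosphatidylinositol (GPI) anchor synthesis, 13 were lower in FP (median -1.49) but only 5 in mRNA (median -0.43). In the oligosaccharyltransferase, which attaches N-glycans, 4 of 6 genes, STT3, WBP1, OST1 and OST3, were lower in both fractions. OST2 had a difference of 0.12 in FP. OST4, a subunit of 36 residues, was higher in FP, with 135, 192 and 283 RPKM in the low strains, against 138 and 110 RPKM in D1/8 and 137 RPKM in WT (difference 0.81 after centring, and not counted as higher when centred on genes without a segment).

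**Figure D3:**
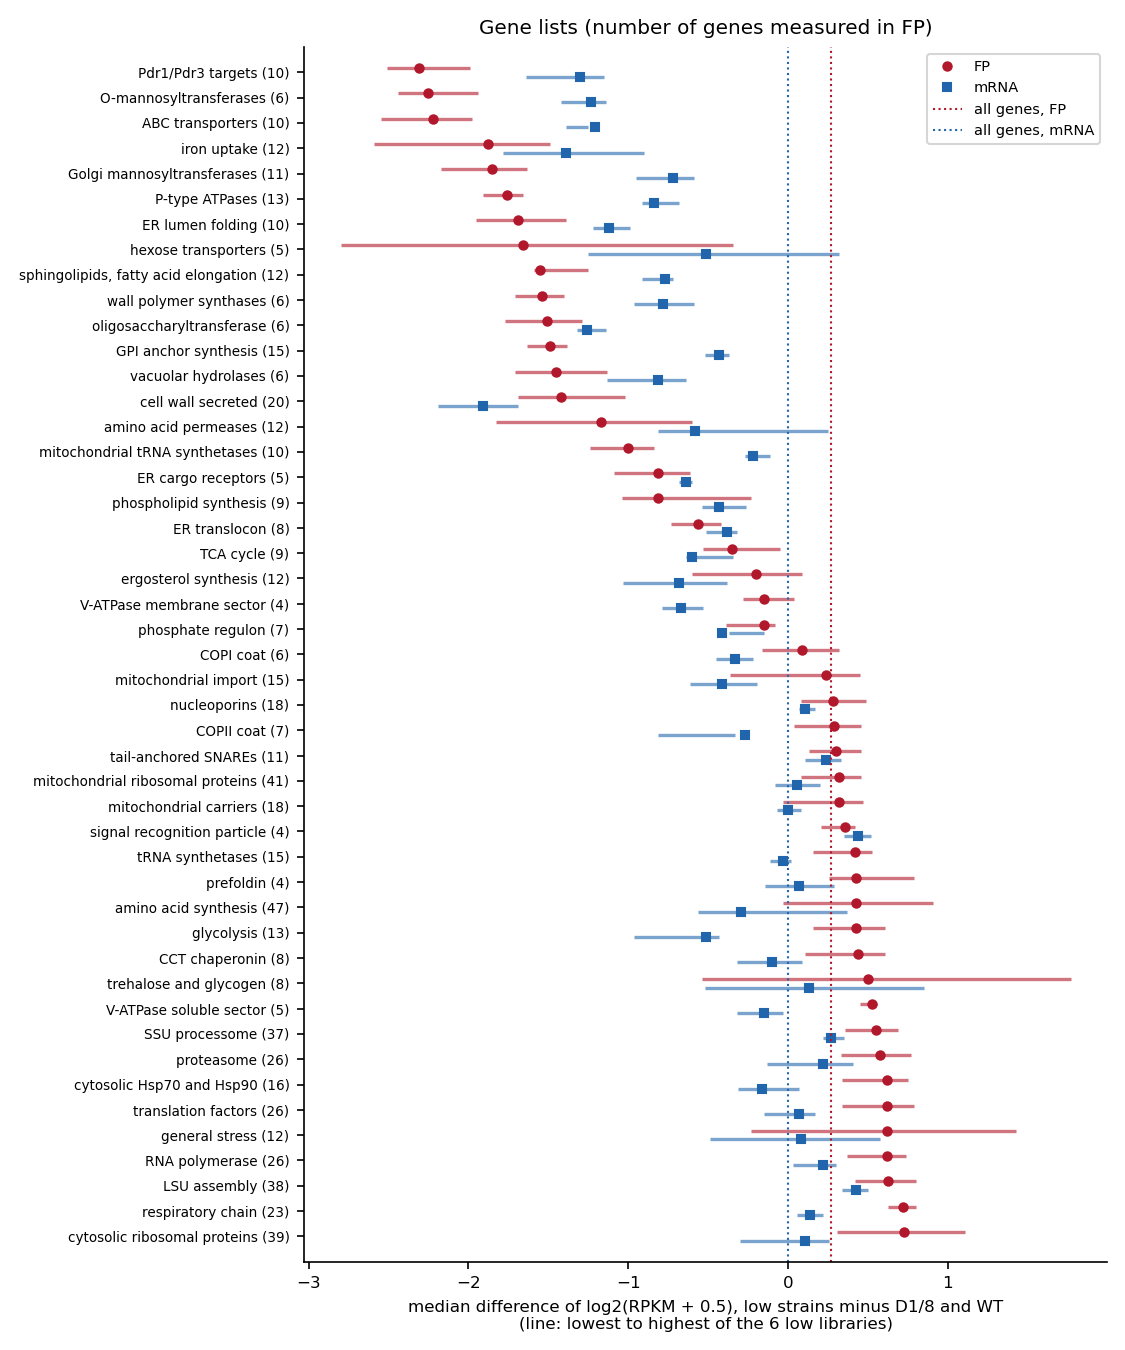
Median difference of log2(RPKM + 0.5), low strains minus D1/8 and WT (horizontal axis), for gene lists in FP and mRNA, with lines from the lowest to the highest of the 6 low libraries. O-mannosyltransferases lie at -2.25 in FP and -1.23 in mRNA, and the median of all genes, drawn as a dotted line, at 0.27 in FP.

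Pumps and transporters of the plasma membrane and vacuole were low to differing extents. All 13 P-type ATPase genes were lower in FP (median -1.76) and 9 in mRNA (median -0.84). ENA1, ENA2 and ENA5 had nearly equal mean FP levels (13.5, 14.4 and 14.2 RPKM), and may not be separate measurements. Whether they share reads was not tested. PMA1, the proton pump that energises the plasma membrane (YGL008C, chromosome VII), had 672, 795 and 869 FP RPKM in the low strains, against 3713 and 3595 RPKM in D1/8 and 3825 RPKM in WT. In mRNA it had 1300, 1472 and 1601 RPKM, against 4109 and 3965 RPKM in D1/8 and 4525 RPKM in WT. All 6 low cultures lay well below the other 3 in both fractions. Of 12 amino acid permeases, 7 were lower in FP (median -1.17), and none was higher. In mRNA 5 of 14 were lower (median -0.58). Of 5 hexose transporters and sensors 2 were lower in FP, HXT3 and SNF3, and 1 in mRNA. HXT3, a low-affinity glucose transporter, had 52.2, 89.3 and 98.4 FP RPKM, against 485 and 431 RPKM in D1/8 and 628 RPKM in WT. In the vacuolar proton pump, 1 of 4 genes of the membrane sector was lower in FP (VPH1, at -1.50), and VMA3, VMA11 and VMA6 had differences of -0.27, -0.04 and 0.35. None of the 5 genes of its soluble sector was lower (median 0.53, or 0.24 when centred on genes without a segment).

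Multidrug transporters of the ATP-binding cassette (ABC) family stood among the lowest lists. Of 10 measured in FP, 9 were lower (median -2.22), as were 9 of 11 in mRNA (median -1.21). PDR5, the main drug efflux pump (YOR153W, chromosome XV), had 104, 135 and 210 FP RPKM in the low strains, against 1562 and 1481 RPKM in D1/8 and 1346 RPKM in WT. In mRNA it had 217, 309 and 363 RPKM, against 2256 and 2211 RPKM in D1/8 and 1698 RPKM in WT. PDR15 (YDR406W, chromosome IV), its close relative, had 1.62, 2.62 and 5.77 FP RPKM, against 110 and 94.3 RPKM in D1/8 and 59.4 RPKM in WT, a difference of -4.53. RSB1, which encodes a translocase of sphingoid long-chain bases, stood at -3.72 in FP and -3.24 in mRNA. PDR5, PDR15 and RSB1 share the transcription factors Pdr1 and Pdr3, so a list of known targets of these factors was added after the values had been seen. It repeats some of the ABC genes, PDR5, PDR15, SNQ2 and YOR1 among them, and leaves out others. Of its members, 8 of 10 were lower in FP (median -2.31) and 8 of 11 in mRNA (median -1.3). CIS1, a member without a predicted segment, stood at -2.41 in FP and -2.13 in mRNA. ICT1 and PDR16 had FP differences of -0.25 and -0.49 and were not counted as lower.

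The element that Pdr1 and Pdr3 are known to bind was looked for in the 600 bases before each start codon, as TCCGNGGA on either strand (TCCNCGGA on the other, and the 2 spellings overlap in TCCGCGGA). It was present before 10 of the 11 list genes, all except RSB1, and before 3.5% of 5620 genes. As the list was made of known targets of these factors, a high share in it was given by that choice. Windows of 30 bases from the RefSeq R64 genome are given for 6 of them, 5 that were lower and 1 that was not, read toward the gene, with the element in capitals.
PDR5, chrXV:619516-619545, plus strand: agagaaatgtcTCCGCGGAactcttctacg
PDR15, chrIV:1278820-1278849, plus strand: cgcatgctcgtTCCGCGGAgagtctcgagc
SNQ2, chrIV:465324-465353, plus strand: tattttaagttTCCGCGGAtgcctttcgat
YOR1, chrVII:1052412-1052441, plus strand: taacgcgtggtTCCGTGGAaatagccggaa
CIS1, chrXII:822899-822928, minus strand: atccgcctattTCCGCGGAatcaatagggc
PDR16, chrXIV:217446-217475, minus strand: ggtccagtcatTCCGCGGAgaaagaaagca
PDR5 held 4 matches in its window and PDR15 held 1. Of the 310 genes lower in both fractions that had a window 7.1% had a match, against 3.8% of the 3661 genes used, and the median FP difference was 0.10 with a match and 0.27 without. Of the 138 genes used that had a match, 22 were lower in both fractions, and no test was made. These 22 include members of the target list, PDR5 and PDR15 among them, and that list was added after their falls were seen. The share is therefore not independent of the list. The 6 genes used with 2 or more matches had median differences of 0.27 in FP and -0.51 in mRNA.

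Iron uptake genes were low in both fractions. Of 12 measured in FP, 9 were lower (median -1.88), as were 11 of 14 in mRNA (median -1.39). FIT1, a cell wall mannoprotein that retains siderophore iron (YDR534C, chromosome IV), had 0, 1.91 and 3.95 FP RPKM in the low strains, against 47.6 and 37.6 RPKM in D1/8 and 27.6 RPKM in WT. In mRNA it had 1.50, 2.11 and 3.09 RPKM, against 35.2 and 33.1 RPKM in D1/8 and 19.2 RPKM in WT. ENB1, a siderophore transporter, had 7.17, 9.0 and 13.9 FP RPKM, against 82.0 and 72.0 RPKM in D1/8 and 97.6 RPKM in WT. FTR1, the high-affinity iron permease, stood at -1.65 in FP and -1.34 in mRNA. TIS11, which encodes a soluble RNA-binding protein of the same iron regulon, was also lower, with -1.35 and -1.82. ATX1 and HMX1, 2 other members without such a fall, had FP differences of 0.03 and -0.20.

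Cell wall proteins differed more in mRNA than in FP. Of 21 genes for secreted wall proteins, 18 were lower in mRNA (median -1.91), against 13 of 20 in FP (median -1.42). SIM1 had the largest mRNA difference of the list (-3.81, with -2.24 in FP), and TIR1, a mannoprotein of the wall, stood at -3.41 in mRNA and -1.77 in FP. CCW12, the most abundant wall gene measured, was an exception, with 12974, 17375 and 23281 FP RPKM in the low strains, against 10910 and 10772 RPKM in D1/8 and 13975 RPKM in WT. Its D13 library lay below WT before centring, and its centred difference was 0.83 in FP, not counted as higher when centred on genes without a segment, and -0.12 in mRNA. All 6 genes of wall polymer synthesis were lower in FP (median -1.54). FKS1, the glucan synthase subunit (YLR342W, chromosome XII), had 54.1, 60.8 and 77.3 FP RPKM, against 365 and 347 RPKM in D1/8 and 375 RPKM in WT, and 116, 122 and 134 mRNA RPKM, against 438 and 445 RPKM in D1/8 and 376 RPKM in WT. Of 6 vacuolar hydrolase genes, 4 were lower in FP, among them PEP4, the protease that activates the others (-1.47).

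In lipid synthesis the lists differed. Of 12 genes of sphingolipid synthesis and fatty acid elongation, 11 were lower in FP (median -1.55) and 9 in mRNA (median -0.77), and most of their enzymes sit in the ER membrane. In ergosterol synthesis 5 of 12 were lower in FP (median -0.20): ERG3, ERG4, ERG24, ERG25 and HMG2, at -2.34 to -1.90, all enzymes of the ER membrane. The soluble enzymes ERG10, ERG20, IDI1 and MVD1 had differences of 0.09 to 0.42. ERG1, ERG26 and ERG27, which are membrane-bound, were not lower either, with 0.40, 0.03 and -0.44. Of 9 phospholipid synthesis genes 5 were lower in FP (median -0.81) and 4 of 10 in mRNA (median -0.43), with OPI3 at -0.91 and PSD2 at 0.44 in FP not counted. OLE1, the fatty acid desaturase, stood at -1.66 in FP and -0.24 in mRNA.

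Not all secretory machinery was low. None of the 7 COPII coat genes, 6 COPI coat genes and 11 tail-anchored SNARE genes measured in FP was lower, and their medians were 0.29, 0.09 and 0.30. Centred on genes without a segment, these medians were 0.00, -0.20 and 0.01, so the COPI median changed sign. SSO1, a plasma membrane SNARE, was higher in FP, with 117, 141 and 167 RPKM in the low strains, against 106 and 112 RPKM in D1/8 and 87.3 RPKM in WT. On the scale centred on genes without a segment no SNARE gene was higher. In mRNA 3 of the 7 COPII genes, SEC31, SEC16 and SEC23, were lower (list median -0.27). SEC31 (YDL195W, chromosome IV) had 35.9, 40.1 and 49.3 mRNA RPKM, against 145 and 158 RPKM in D1/8 and 125 RPKM in WT. In FP it had 130, 144 and 194 RPKM, against 176 and 174 RPKM in D1/8 and 159 RPKM in WT, and there the groups overlapped.

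SEC31 was 1 of several genes lower in mRNA and not in FP. TUP1, a general corepressor, stood at -2.44 in mRNA and 0.57 in FP. TUB2, which encodes β-tubulin, stood at -1.78 and 0.42, and RPO21, the largest subunit of RNA polymerase II, at -1.59 and 0.09. VRP1 and LAS17, both of the actin patch, had mRNA differences of -1.99 and -1.93 and FP differences of 0.25 and 0.03. The GC content of these coding sequences was 45.5% for TUP1, 48.9% for VRP1, 47.3% for LAS17, 44.3% for TUB2, 42.2% for SEC31 and 40.9% for RPO21.

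Mitochondrial genes were divided in another way. A list of mitochondrial tRNA synthetases, drawn up after the values had been seen, had all 10 measured genes lower in FP (median -1.0) and none in mRNA (median -0.22). NAM2, the leucyl enzyme (YLR382C, chromosome XII), had 2.78, 3.51 and 4.2 FP RPKM in the low strains, against 16.6 and 15.7 RPKM in D1/8 and 14.3 RPKM in WT. In mRNA it had 21.1, 22.7 and 27.3 RPKM, against 29.7 and 29.4 RPKM in D1/8 and 27.6 RPKM in WT. Those groups lay close together in mRNA, and the difference there was -0.30. The 15 cytosolic tRNA synthetases had an FP median of 0.42 with none lower. Of 15 genes of mitochondrial protein import, 7 were lower in FP: the receptors TOM70 (-1.3) and TIM50 (-1.55), TIM44 (-1.01), TIM54, OXA1 and the matrix chaperones SSC1 and MDJ1. TOM22 and TOM6 were higher on the same scale (0.59 and 0.86), and the list median was 0.24, or -0.05 when centred on genes without a segment. In the citric acid cycle, a list also drawn up after the values had been seen, 2 of 9 genes were lower in FP, ACO1 and KGD1 (list median -0.35). Over all genes 16.2% were lower in FP, and this count was near that share. ACO1, the aconitase, had 183, 239 and 477 FP RPKM, against 899 and 799 RPKM in D1/8 and 1010 RPKM in WT. ATP2, the catalytic β-subunit of the ATP synthase, stood at -1.15 in FP and -0.93 in mRNA. None of the 18 inner membrane carriers was lower in FP (median 0.32, or 0.03 on the other scale, where 2 were lower).

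Of the 467 genes counted as higher in FP, 409 encode proteins without a predicted segment, as do 2499 of the 3711 genes used. Over all genes 12.6% were higher in FP and 6.86% in mRNA. Among genes without a segment, 42.9% of those above 200 RPKM and 35.7% of those of up to 600 bases were higher in FP. The part of level and length in the list counts that follow was not tested. Of 23 respiratory chain genes 16 were higher (median 0.72), and 6 of them were higher with centring on genes without a segment (median 0.43). COX9, a small subunit of cytochrome c oxidase, stood at 1.25 in FP and -0.09 in mRNA. Of 39 cytosolic ribosomal protein genes measured, 27 were higher (median 0.73) but only 1 on the other scale (median 0.44). Reads from near-identical pairs of these genes may have been split, so single members are uncertain. Large subunit assembly factors followed, with 22 of 38 higher (4 on the other scale), then translation factors with 13 of 26 (1 on the other scale), small subunit processome genes with 13 of 37, proteasome genes with 11 of 26 and Hsp70 and Hsp90 genes with 8 of 16 (none of these 3 lists on the other scale). In mRNA 12 of 38 large subunit assembly genes (median 0.43) and 5 of 37 processome genes (median 0.27) were higher. At most 2 genes of the respiratory chain, proteasome, and Hsp70 and Hsp90 lists were, with medians of 0.14, 0.22 and -0.16.

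The 12 largest falls in FP among genes lower in both fractions with a mean of at least 10 RPKM were those of STE2, PDR15, FIT1, BAR1, RSB1, PDR5, ENB1, CHA1, TCB2, TVS1, HXT3 and PMT5, at -4.56 to -2.50. All but CHA1 encode proteins with a predicted segment. CHA1, the catabolic serine deaminase, had 8.80, 23.0 and 49.8 FP RPKM in the low strains, against 139 and 165 RPKM in D1/8 and 170 RPKM in WT. STE2 and BAR1 are genes of MATa cells. For STE2 the 3 MATa low libraries held 26.2 to 40.6 FP RPKM and the MATα libraries 0.44 to 1.91 RPKM, against 148 and 146 RPKM in D1/8 and 378 RPKM in WT, so mating type and the other differences cannot be told apart in the group value. The MATa low libraries alone were still below D1/8.

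The 12 largest rises among genes higher in both fractions were smaller, 1.04 to 2.16, and stayed between 0.75 and 1.87 when centred on genes without a segment. ARO10, a decarboxylase of the Ehrlich pathway (YDR380W, chromosome IV), had 28.8, 103 and 180 FP RPKM in the low strains, against 18.2 and 18.9 RPKM in D1/8 and 24.6 RPKM in WT. SER3, the first enzyme of serine synthesis (YER081W, chromosome V), had 149, 214 and 276 FP RPKM, against 64.5 and 60.9 RPKM in D1/8 and 109 RPKM in WT. In mRNA it had 160, 198 and 216 RPKM, against 111 and 103 RPKM in D1/8 and 135 RPKM in WT. MXR1, a methionine sulfoxide reductase, had 93.1, 120 and 192 FP RPKM, against 51.0 and 59.6 RPKM in D1/8 and 71.2 RPKM in WT. The others were FMP16, YNL134C, INH1 (the inhibitor of the ATP synthase), GCY1, CYC7 (a cytochrome c), ALB1 and CGR1 (both of ribosome assembly), BNS1 and QCR8 (a subunit of respiratory complex III).

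**Figure D4:**
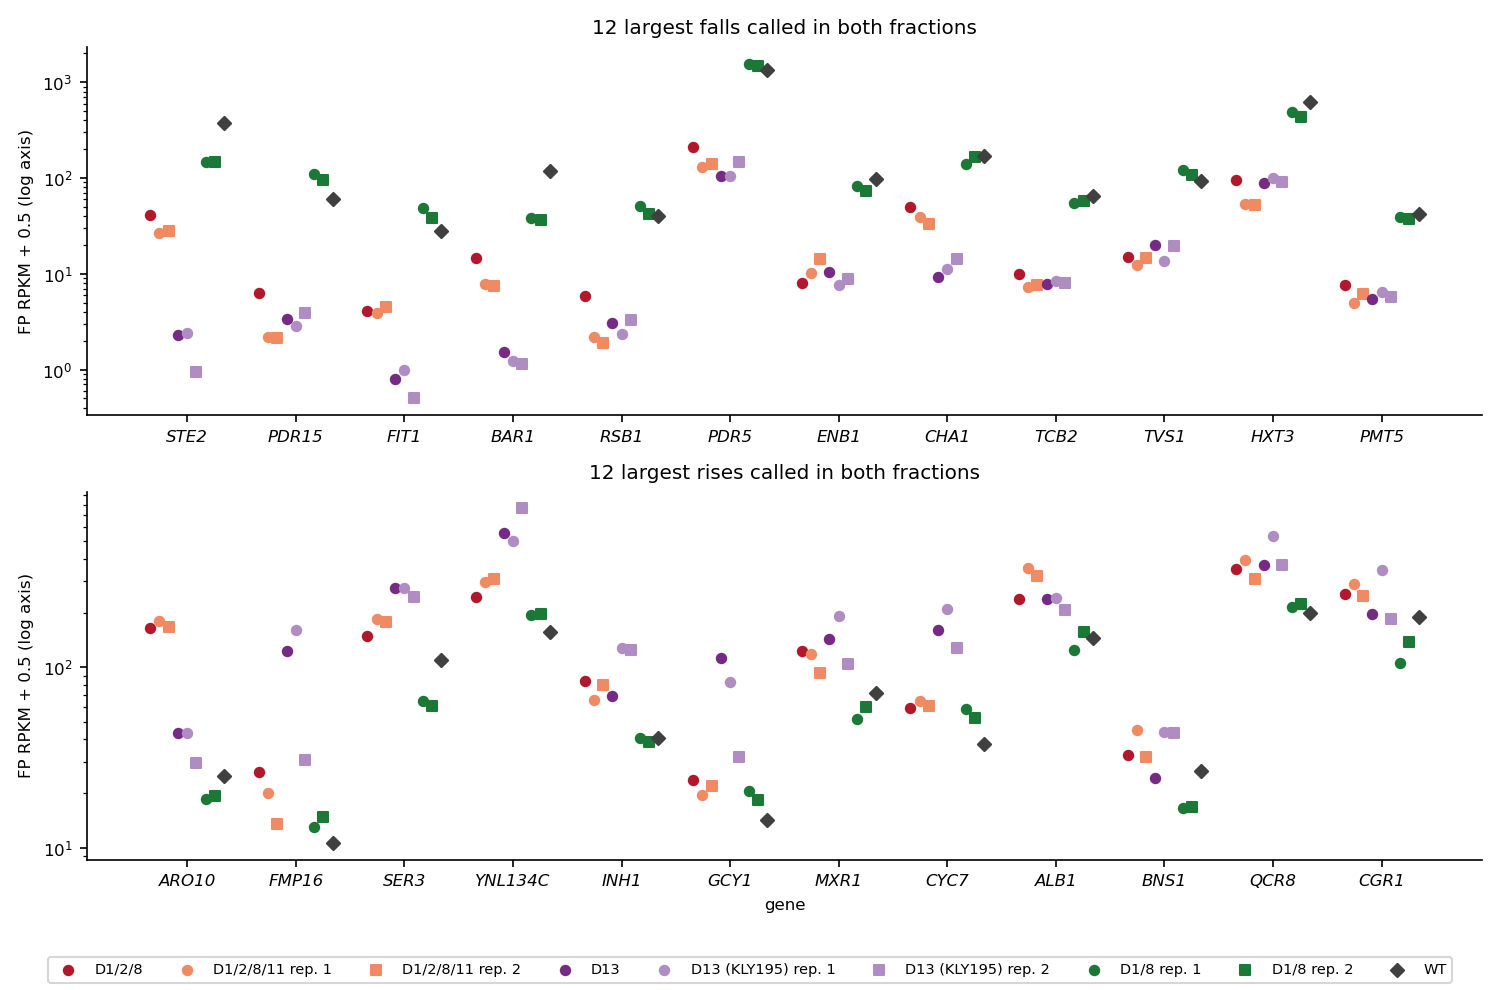
FP level of the 12 genes with the largest falls (top) and the 12 with the largest rises (bottom), as RPKM + 0.5 on a log axis, 1 point per run 2 library. In PDR5 the 6 low libraries lie at 104 to 210 RPKM and D1/8 and WT at 1346 to 1562 RPKM.

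The 6 low cultures are of 2 kinds, the MATa strains with an extra chromosome II (chromosome II strains, 3 cultures) and the MATα strains with an extra chromosome XIII (chromosome XIII strains, 3 cultures). The difference between them was not part of the rule, so it was tested with limma on log2(RPKM + 0.5) over all genes. The test set 3 cultures against 3 and was two-sided, with a Benjamini-Hochberg adjusted p under 0.05 as the threshold. Each side held only 2 strains, with 2 of its 3 cultures from 1 isolate. The limma adjusted p values treat cultures of an isolate as independent, so they describe these strains and not a karyotype or mating type. Between the chromosome II and the chromosome XIII strains, 455 of 3711 genes differed in FP, 206 higher (5.55%) and 249 lower (6.71%), and 963 of 4038 differed in mRNA, 569 higher (14.1%) and 394 lower (9.76%). The number in FP ranged from 126 without D13 to 803 without D13 (KLY195) replicate 2, and was 136 and 143 without replicate 1 or 2 of D1/2/8/11 and 148 without D13 (KLY195) replicate 1. In mRNA it was 306 without replicate 2 of D1/2/8/11, 350 without its replicate 1, 618 and 429 without replicate 1 or 2 of D13 (KLY195), and 1237 without D13. Karyotype and mating type both separate the 2 kinds and cannot be told apart. Of the 600 genes lower in FP, 55 (9.2%) passed this test in FP, against 12.3% of all genes. Of the 589 lower in mRNA that were measured in both fractions, 186 (31.6%) passed it in mRNA, against 23.8% of all genes. Of these 186, 141 were higher and 45 lower in the chromosome II strains. The lower genes had been chosen because all 6 low libraries lay below the other 3. Neither share is therefore independent of that choice, and no conclusion is drawn from them. For PMA1 the FP difference between the 2 kinds was 0.04 (standard error 0.141, limma adjusted p = 0.864) and for PDR5 it was 0.43 (standard error 0.216, limma adjusted p = 0.213), small beside their differences of -2.04 and -3.21 from D1/8 and WT.

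Stress genes separated the 2 kinds. Of 12 general stress genes 9 were lower in FP in the chromosome II strains than in the chromosome XIII strains (5 to 11 with 1 library left out), with a median difference of -1.28, and 9 were lower in mRNA (median -0.85). Of 8 trehalose and glycogen genes 7 were lower in both fractions, with medians of -1.76 and -1.25. GPH1, glycogen phosphorylase (chromosome XVI), had 25.0, 15.2 and 18.9 FP RPKM in the chromosome II strains, and 120, 120 and 163 RPKM in the chromosome XIII strains, against 48.5 and 39.5 RPKM in D1/8 and 21.1 RPKM in WT. The groups did not overlap, and the difference was -2.74 (standard error 0.199, limma adjusted p = 0.000231). SPI1, a wall protein induced in stationary phase, differed by -4.67 (standard error 0.393, limma adjusted p = 0.000435), with 3.72 to 13.3 RPKM in the chromosome II strains and 153 to 204 RPKM in the chromosome XIII strains. HSP12, a membrane-associated stress protein, did not pass in FP (-1.75, limma adjusted p = 0.06). Its mRNA was at 903 RPKM in D13 and at 225 and 194 RPKM in D13 (KLY195), while in FP D13 had 1145 RPKM and the libraries labelled D13 (KLY195) had 1263 and 297 RPKM.

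Iron uptake was low in both kinds but lower in the chromosome XIII strains: 5 of 12 genes were higher in FP in the chromosome II strains (3 to 5 with 1 library left out) and 7 in mRNA (3 to 11 of the 14 measured there with 1 library left out). FIT2, another wall mannoprotein of siderophore uptake, had 133, 146 and 170 FP RPKM in the chromosome II strains, and 43.4, 40 and 13.6 RPKM in the chromosome XIII strains, against 291 and 278 RPKM in D1/8 and 270 RPKM in WT. Its difference between the 2 kinds was 2.37 (standard error 0.391, limma adjusted p = 0.0109). FIT3, of the same family, differed by 3.12 (standard error 0.717, limma adjusted p = 0.0331) and passed in 3 of the 6 fits with 1 library left out. For SIT1, a siderophore transporter, the FP values of both kinds overlapped, with 22.3 to 26.8 RPKM and 18.1 to 28.0 RPKM, against 122 to 188 RPKM in D1/8 and WT. Of 5 hexose transporters 3 were lower in the chromosome II strains in both fractions (0 to 3 in FP with 1 library left out), and 17 of 26 proteasome genes were higher in mRNA (3 to 18 with 1 library left out) and 2 in FP (0 to 11 with 1 library left out). The mating-type genes also separated the kinds. MF(ALPHA)1, an α-factor gene, had 0, 0 and 0.874 FP RPKM in the chromosome II strains and 1687, 2041 and 2964 RPKM in the chromosome XIII strains, and MFA2, an a-factor gene, had 362, 234 and 214 RPKM and 0, 5.15 and 0 RPKM. MF(ALPHA)2, SAG1 and the copies HMLALPHA1 and MATALPHA1, which share their reads, were also at or near 0 in the chromosome II strains, and MFA1 was low in the chromosome XIII strains. The α genes entered the test only through the kind where they are high, and as the fitted differences of all these genes depend on the pseudocount none is given.

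**Figure D5:**
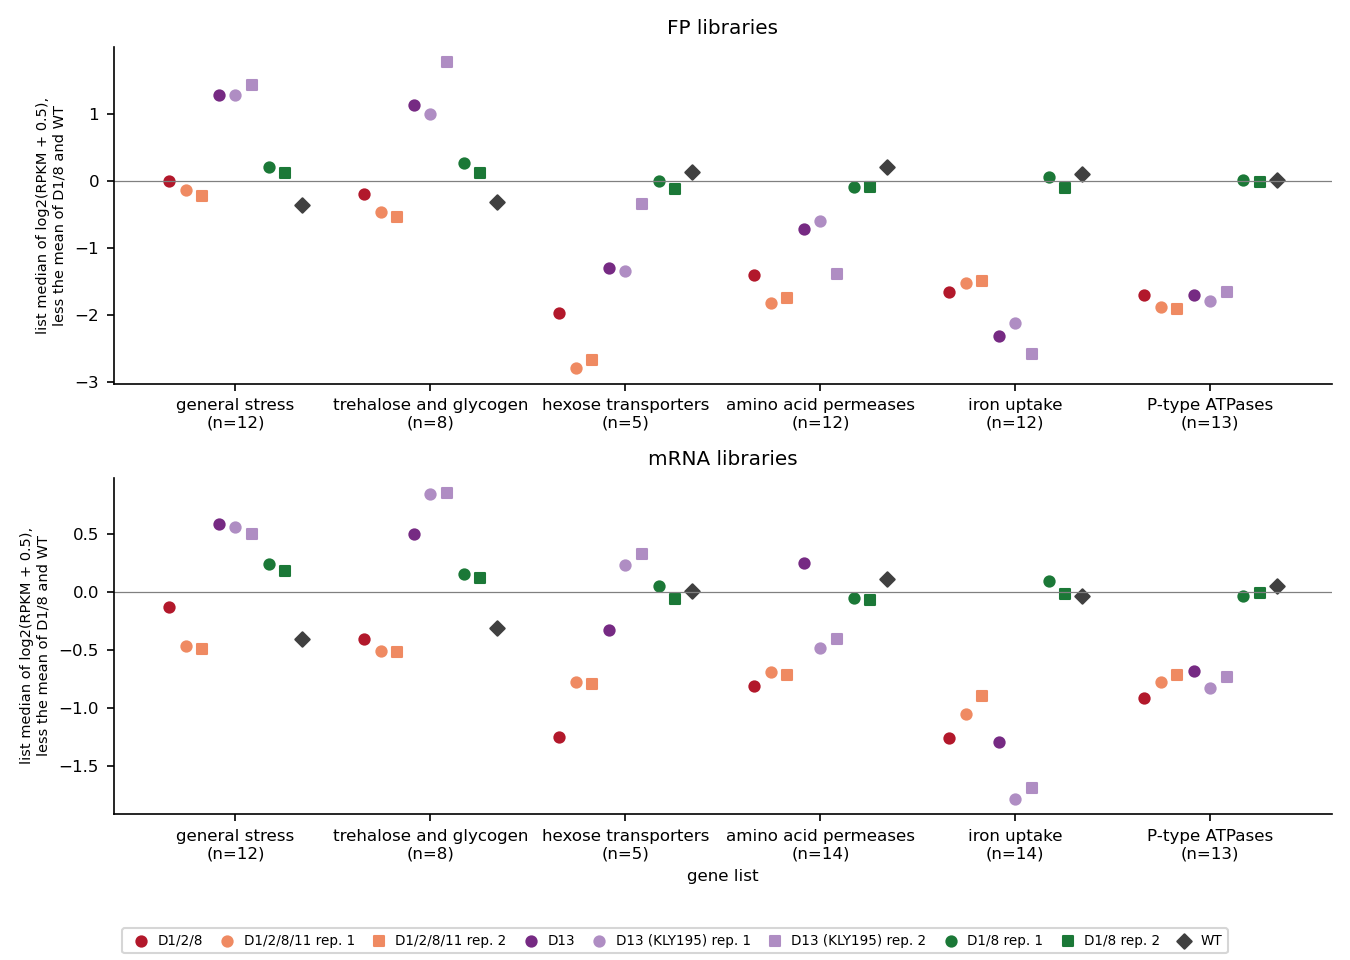
Median of log2(RPKM + 0.5) over the genes of each list, less the mean of D1/8 and WT, in each FP library (top) and mRNA library (bottom), for lists compared between the 2 kinds of low strain. The general stress list lies at -0.23 to -0.01 in FP in the chromosome II strains and at 1.28 to 1.43 in the chromosome XIII strains, while the iron uptake list lies at -2.59 to -1.49 in all 6.

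The strains of run 1, which the rule did not use, were looked at for the same genes. D2 and D1/2 have 1 library per fraction, as has the WT of that run, and no replicate error can be given for them. The run 1 libraries held 1660748 to 5076059 recovered reads in FP and 1532718 to 3477590 in mRNA, fewer than those of run 2. Values of a few RPKM in run 1 therefore rest on few reads. The 600 genes lower in FP had medians of 0.04 in D2 and -0.05 in D1/2 relative to that WT, and 46.3% and 54.7% of them lay below 0, against 47.5% and 50.3% of all genes. Genes with 5 or more segments stood at 0.05 and -0.01 in FP. In mRNA the 613 lower genes stood at 0.13 and 0.17, and the 277 higher ones at -0.13 and -0.08. Of the 12 genes with the largest falls, 6 were below that WT in FP in both strains (STE2, PDR15, BAR1, RSB1, PDR5 and TVS1) and the other 6 above it. PDR15 had 2.20 FP RPKM in D2 and 1.26 RPKM in D1/2, against 19.6 RPKM in WT of run 1, and RSB1 had 1.31 and 1.56 RPKM, against 9.96 RPKM. ENB1 was at 41.1 RPKM in D2 and 51.2 RPKM in D1/2, against 13.3 RPKM in that WT, and CHA1 at 133 and 189 RPKM, against 82.1 RPKM.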

How the data were processed

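Total RNA and ribosome-protected fragments were sequenced from the same cultures after a brief cycloheximide treatment, both from the cleared supernatant of detergent lysates. Per the labels, cutadapt, Bowtie and the sacCer3 build are named in the submitters' processing notes. The authors mapped reads to full-length mRNAs without mismatches, counted them within coding sequences and deposited RPKM values, each aneuploid library having been divided by its median ratio to WT over genes on nonduplicated chromosomes. Multiplied by coding length, the values step by whole reads: 90.7% to 98.6% of run 2 values of up to 50 reads lay within 0.05 of one, and the fewest listed was 4. Genes whose coding sequence is interrupted are left out of account, since 247 of 248 hold no value above 0.

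Genes off chromosomes I, II, VIII, XI and XIII with a mean of at least 1 RPKM over the 9 libraries of a fraction were used. The members of the comparison and the gene lists were chosen with earlier results of these data known, and 3 of 50 lists (mitochondrial tRNA synthetases, citric acid cycle, Pdr1 and Pdr3 targets) after the values of this comparison were seen. Genes were named if among the 12 largest falls or rises in FP that were called in both fractions with a mean of at least 10 RPKM, if among the 3 list members with the highest FP level, as label checks, or if among the 5 largest rises or falls between the 2 kinds of low strain. Other list members named were chosen after their values were seen. Hydrophobic segments were predicted from the coding sequences of the RefSeq R64 genome for 5620 genes. The only test was limma 3.58.1 (R 4.3.3, lmFit and eBayes with trend), checked on simulated data. The replicate number did not enter that fit. Other pseudocounts, filters, scalings, thresholds and left-out libraries were tried.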

Additional observations from a re-analysis of the deposited data

Results flagged for a closer look

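In 4 of the 62 sets of 6 low libraries examined, 1 library stood far from the others by Dixon's criterion, which chance alone gives in about 1 of 20 sets. D13 stood apart in mRNA for FMP16, with a difference of 2.61 from D1/8 and WT against 0.39 to 1.06 in the other 5, for GCY1, with 1.51 against 0.29 to 0.72, and for the median of genes with 1 internal segment, with -0.09 against -0.05 to -0.03. D13 (KLY195) replicate 1 stood apart in mRNA for BNS1, with 1.25 against 0.92 to 1.02.

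Of the genes with the largest falls and rises, several also differed between the chromosome II and the chromosome XIII strains in the limma test (log2 differences, 3 cultures against 3, Benjamini-Hochberg adjusted p under 0.05). STE2 differed by 4.2 in FP and 2.10 in mRNA and BAR1 by 2.88 and 2.54. Both are genes of MATa cells, and the chromosome XIII strains are MATα, so a difference in STE2 and BAR1 was given by the design. FIT1 differed by 2.5 and 0.74, CHA1 by 1.84 and 1.18 and ARO10 by 2.18 and 1.24. In the chromosome XIII strains FIT1 held at most 0.484 FP RPKM, STE2 0.44 to 1.91 RPKM and BAR1 0.646 to 1.01 RPKM. The FP differences of these 3 genes therefore depend on the pseudocount. YNL134C differed by -1.06 in FP and -0.90 in mRNA, and CYC7 by -1.39 and -0.81. SER3 (-0.62) and GCY1 (-1.61) differed in FP only, and TVS1 (0.61) and ALB1 (0.23) in mRNA only.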

How the results depend on the processing

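The number of genes counted as lower in FP was 460 to 730 under the alternatives tried, against 600, and that of higher genes varied more. In FP, 96 genes were higher with no centring, 47 with libraries centred on genes without a segment, 53 with the GC trend removed and 45 at a 2-fold difference. In mRNA the same numbers were 168, 114 and 26 for the last 3 settings, and 286 genes were lower at 2-fold. Centring on genes without a segment and removing the GC trend were chosen after seeing the data. The median of genes with a segment in FP was -0.32 with a pseudocount of 1, -0.64 and -0.60 under these 2 settings and -0.81 with a hydropathy threshold of 1.8, and that of genes without one was 0.08 and 0.11. In mRNA the first was -0.36, -0.36 and -0.31 under these 2 settings and the threshold of 1.8, and -0.23 at a mean of at least 10 RPKM. The second was -0.00, 0.01 and, at 10 RPKM, 0.13. The cause was not tested.

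With 1 library left out, 597 to 621 genes were lower and 432 to 627 higher in FP, and 606 to 697 lower and 266 to 367 higher in mRNA. The median of genes without a segment was 0.08 to 0.12 in mRNA. The limma counts between the 2 kinds of low strain were 126 to 803 in FP and 306 to 1237 in mRNA. With 1 group per strain over all 9 libraries they were 711 and 2124, and between D1/2/8/11 and D13 (KLY195) alone 89 and 1963. With the replicate block these last counts were 137 and 2540, but the 2 strains share only a number: same-numbered samples deviated with a correlation of 0.12 in FP and 0.22 in mRNA over 2 pairs. Of the single-gene values, 147 moved by more than the spread between replicates and 13833 did not.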

Other observations

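Amino acid synthesis was mixed in the low strains. Of 47 genes measured, 6 were lower in FP and 3 were higher, and the list median was 0.43, or 0.14 when centred on genes without a segment. Over all genes 16.2% were lower in FP and 12.6% higher, and neither count of the list was above that share. The lower ones were LYS4 (-1.40), LYS12 (-0.91), LEU4 (-1.46), LEU9 (-1.58), ILV1 (-1.48) and ILV3 (-1.19), all of lysine, leucine or isoleucine and valine synthesis and all known as mitochondrial enzymes. The higher ones were SER3 (1.70), GLN1, the glutamine synthetase (1.27), and ARO2, the chorismate synthase (0.90). These genes were singled out after their values had been seen.

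In the nuclear pore, none of 18 soluble nucleoporin genes was lower in FP and 4 were higher (median 0.28), but 2 were lower and none higher when centred on genes without a segment (median -0.01). The membrane members POM33 and POM34 were lower, with -1.32 and -0.91.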
